A study of Mus musculus with 4 samples.

Results

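Lamp5/Ndnf interneurons were followed in single-nucleus RNA-seq of mouse brain, as nuclei that held transcripts of Adarb2, of a GABA-synthesizing enzyme, and of Lamp5 or Ndnf. A nucleus was taken from the 2 libraries labelled cortex if it had at least 2 unique molecular identifiers (UMIs, each standing for 1 captured RNA molecule) of Adarb2, at least 1 of Gad1 and Gad2 together and at least 2 of Lamp5 and Ndnf together. It also had no UMI of Vip, and at most 1 each of Sst, of Slc17a7, and of Mog, Aqp4, Csf1r and Cldn5 together. This gave 178 nuclei of 37538 in those libraries and of 78728 in the series, 75 in the AAV-CTRL library and 103 in the AAV-VEGF-C library.

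GABAergic interneurons of the cortex fall into families that are named after marker genes. The Lamp5 and Ndnf family belongs with Vip cells to the Adarb2 branch, which arises from the caudal ganglionic eminence, while most Sst and Pvalb cells arise from the medial one. It includes neurogliaform cells, which are common in the superficial layers and release GABA in a diffuse way that also reaches slow GABA-B receptors. Lamp5 encodes a membrane protein of synaptic vesicles in GABAergic terminals, Ndnf a secreted neuron-derived factor, and Adarb2 a brain-specific protein related to RNA editing enzymes.

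The mice were C57BL/6J males. At 4 weeks of age a viral vector (adeno-associated virus, AAV) was injected into their cisterna magna, a fluid space at the base of the brain, and brains were taken 4 weeks later, at 8 weeks. AAV-VEGF-C delivered mouse vascular endothelial growth factor C, and AAV-CTRL delivered soluble VEGF receptor 3 domains that do not bind it, fused to an immunoglobulin tail, so the control vector also carried a secreted protein. Brains of 5 mice were pooled per AAV group, and each AAV group gave 1 library labelled cortex and 1 labelled striatum. No difference between libraries therefore has a replicate check, no test was run, and every interval covers counting error only, at 95%. Unless stated otherwise, paired values are those of the AAV-CTRL and then the AAV-VEGF-C library labelled cortex, levels are summed UMIs scaled to a total of 1000000 per class (CPM, not corrected for gene length), and parentheses after a log2 ratio hold its interval.

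The region labels do not settle where a nucleus came from. A list of 8 genes of striatal projection neurons (SPNs, the GABAergic output cells of the striatum) summed to 1731 and 1783 CPM over all other nuclei of the libraries labelled cortex, and to 844 and 853 CPM in those labelled striatum, which is the lower pair. A list of excitatory neuron genes went with the labels, at 1580 and 1694 against 331 and 311 CPM. The cortex-labelled libraries held 63165470 and 78332657 UMIs in 17168 and 20370 nuclei, and the pair shared 94 cell barcodes, none of them a Lamp5/Ndnf nucleus. Lamp5/Ndnf nuclei had a median of 4994 and 4959 UMIs and 2470 and 2492 genes, with 0.601% and 0.769% of their UMIs from mitochondrial genes, and 1 and 6 of them were called doublets.

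The genes that chose the nuclei varied widely among them. Adarb2 (chromosome 13, 8202866 to 8768747, plus strand of GRCm38) had a median of 14 and 13 UMIs per nucleus, from 2 to 104 and from 2 to 131. Lamp5 (chromosome 2, 136052239 to 136069917, plus strand) was in 67 and 95 nuclei, with at most 5 and 6 UMIs in any. Ndnf (chromosome 6, 65671590 to 65712326, plus strand) was in 37 and 41 nuclei, with at most 10 and 8. Thus 38 and 62 nuclei had Lamp5 without Ndnf, 8 and 8 had Ndnf without Lamp5, and 29 and 33 had both. These values describe the selection and test nothing.

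Nuclei near the limits looked unlike those far inside. The 13 and 11 nuclei with exactly 2 UMIs of Adarb2 had a median of 19 and 37 UMIs over the SPN list, and of 3 and 2 UMIs over Npy, Reln, Kit and Nxph1 together, which the rule did not use (Npy, Reln and Kit are markers of the family, and Nxph1 is shared with Sst and Pvalb nuclei). The 56 and 81 nuclei with more than 5 UMIs of Adarb2 had medians of 7 and 6 over the SPN list, and of 24.5 and 24 over the other 4 genes. Just outside the limit, 22 and 28 nuclei with 1 UMI of Adarb2 met every other condition, with medians of 12 and 7 over the SPN list and of 1 and 1 over the 4 genes. A further 143 and 135 nuclei had only 1 UMI of Lamp5 and Ndnf together, and their medians over the 4 genes were 1 and 2, against 7.5 and 12 in the 38 and 52 nuclei with exactly 2.

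Summed over the nuclei, some but not all of the unused markers bore out the family label. Of 16 marker genes of the family that the rule did not use, 5 were at least 2-fold higher than in all other nuclei of the same library, in both libraries, as were 1.98% of 15396 genes with at least 100 UMIs. Reln, the secreted glycoprotein reelin (minus strand of chromosome 5, 21884454 to 22344702), stood at 1374 and 1233 CPM against 87.0 and 91.2, log2 ratios of 3.98 (3.85 to 4.11) and 3.76 (3.64 to 3.87). Npy, the precursor of neuropeptide Y (plus strand of chromosome 6, 49822710 to 49829507), stood at 906 and 1362 CPM against 87.6 and 90.7, ratios of 3.37 (3.21 to 3.53) and 3.91 (3.80 to 4.02). Kit, a receptor tyrosine kinase (plus strand of chromosome 5, 75574916 to 75656722), stood at 397 and 389 CPM against 22.5 and 20.9. Reelin, neuropeptide Y and Kit were thus the strongest of the unused markers. The synaptic vesicle gene Sv2c stood at 312 and 317 against 51.3 and 51.3 CPM. Cplx3, which encodes a complexin, rested on only 13 and 18 UMIs.

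The other 11 markers did not reach this size. Prox1 and Nr2f2, transcription factors of cells from the caudal eminence, were higher by less, with log2 ratios of 0.96 and 0.97 for Prox1 and of 0.89 and 0.80 for Nr2f2. Id2, an inhibitor of helix-loop-helix factors often used as a marker of the family, had ratios of -0.24 and 0.64. After thinning to 2000 UMIs per nucleus, Id2 was found in 8.22% and 18.8% of the Lamp5/Ndnf nuclei. It was in 15.6% and 14.8% of oligodendrocyte nuclei and in 13.6% and 5.43% of Vip nuclei. The part of background RNA in it was not tested. Tafa1, named Fam19a1 in the files, was lower here than elsewhere, at -1.59 and -1.98.

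A group of 30 nuclei, 13 and 17, carried more than 20 UMIs over the SPN list, a limit set after the values were seen. In them Rgs9, a regulator of G protein signalling, was at 511 and 936 CPM against 67.4 and 29.7 in the remaining 62 and 86 nuclei. Pde10a, a phosphodiesterase of striatal neurons, was at 3597 and 3659 against 1135 and 1063 CPM. Npy, in contrast, was at only 117 and 25.8 CPM in the 30 nuclei and at 1155 and 1747 in the rest, and Kit at 95.8 and 77.3 against 492 and 478. Rgs9 and Pde10a are on the list, so their levels follow from the limit and describe it. Reln was at 1266 CPM in those of the AAV-CTRL library and at 301 in those of the AAV-VEGF-C library. They were also deeper, with a median of 6713 and 6168 UMIs against 4745 and 4626.5. In all, 7 and 12 nuclei lay near the limit, with 15 to 25 UMIs over the list. Several results below are also given without the 30 nuclei.

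**Figure D1:**
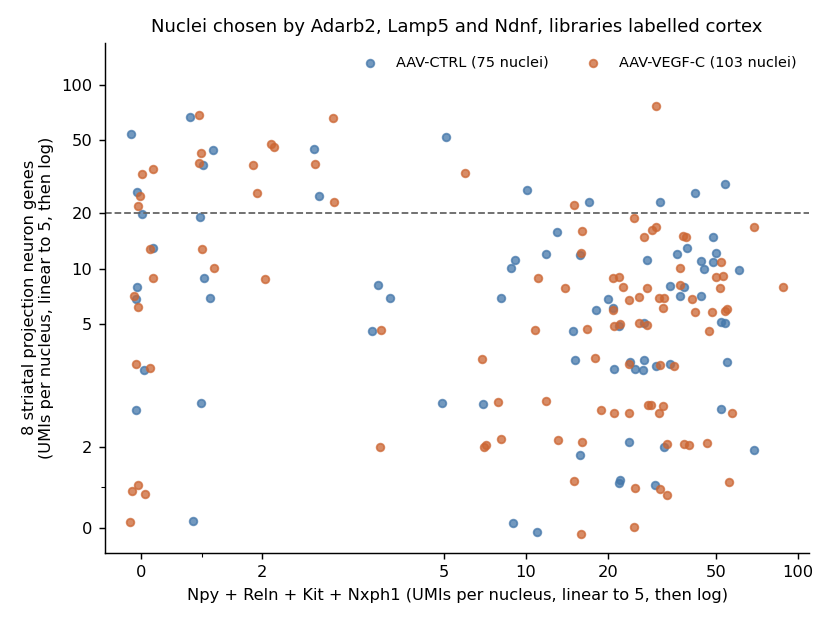
Each point is 1 Lamp5/Ndnf nucleus, plotted by its UMIs of Npy, Reln, Kit and Nxph1 together (horizontal) and of 8 striatal projection neuron genes (vertical), on axes that are linear to 5 and logarithmic above, with a small jitter. The dashed line marks 20 UMIs. The 13 and 17 nuclei above it have a median of 3 and 2 UMIs of the 4 genes, while 36 and 54 nuclei have more than 20, and 8 and 14 have none.

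Lists of other cell types were mostly low in the Lamp5/Ndnf nuclei. The Vip list summed to 92.1 and 106 CPM (2942 and 3033 in Vip nuclei), the Sst list to 335 and 294 (4106 and 4162 in Sst nuclei) and the Pvalb list to 716 and 712 (3128 and 3020 in Pvalb nuclei). These lists hold Vip, Sst and Pvalb themselves. The rule capped Vip and Sst, and each comparison class was chosen by its own marker, so these gaps follow in part from the selection. The excitatory list was at 765 and 791 CPM, below its 1580 and 1694 in all other nuclei. The lists stood at 450 and 340 CPM for oligodendrocytes, 686 and 579 for astrocytes, 115 and 98.1 for microglia and 25.6 and 25.01 for endothelium. The rule also capped Slc17a7, Mog, Aqp4, Csf1r and Cldn5, and Cldn5 had no UMI. Low values for these cell types thus also follow in part from the selection. Sncg-type genes, which mark another Adarb2 family, summed to 453 and 623 CPM against 1340 and 1494 in Vip nuclei. The part of these other-cell transcripts in the results below was not tested.

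Npy, Reln and Kit were spread unevenly over the nuclei. Npy was in 45 of 75 and 58 of 103 nuclei, with a median of 1 UMI in each library and a maximum of 42 and 47, and as few as 6 and 11 nuclei held 50% of all its UMIs. Reln was in 52 and 65 nuclei, with medians of 3 and 2 and maxima of 43 and 33. Kit was in 44 and 55 nuclei, with at most 10 UMIs in either library. A part of the nuclei was thus rich in each gene while others had none. Nxph1, which encodes a secreted ligand of neurexins, was in 54 and 65 nuclei, and 43 and 49 of those had at least 5 UMIs of it.

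The nuclei high in Npy and those high in Reln overlapped in part. At 5 or more UMIs, 8 and 14 nuclei had both, 12 and 22 had Npy alone, 24 and 29 had Reln alone and 31 and 38 had neither. Reln was thus this high in 8 of 20 and 14 of 36 nuclei high in Npy, close to its 32 of 75 and 43 of 103 overall. These counts show neither a joint nor a separate presence of Npy and Reln. Most nuclei with at least 5 UMIs of Npy also had at least 5 of Nxph1, in 18 of 20 and 26 of 36. Meis2, a homeobox factor of ganglionic eminence neurons and SPNs, had at least 5 UMIs in only 13 and 21 nuclei. Of these, 1 and 2 also had at least 5 of Npy, which was this high in 20 of 75 and 36 of 103 nuclei overall. Whether Meis2 and Npy keep apart was not tested.

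The shares stood above the background of free RNA at equal depth. With every nucleus thinned to 2000 UMIs, which left out 2 and 2 Lamp5/Ndnf nuclei and 190 and 232 of 286 and 374 oligodendrocyte nuclei, Npy was found in 49.3% and 47.5% of Lamp5/Ndnf nuclei and in 5.21% and 6.34% of oligodendrocyte nuclei, which should lack it. Unthinned shares were 60% and 56.3% against 13.3% and 10.2%, at median depths of 4994 and 4959 UMIs against 1751.5 and 1807. Reln was in 54.8% and 54.5% of the thinned Lamp5/Ndnf nuclei and 5.21% and 5.63% of the oligodendrocyte nuclei, and Kit in 45.2% and 45.5% against 4.17% and 8.45%. Sst nuclei came nearest for Npy, at 34.7% and 38.1%, and for Reln, at 36.6% and 40.1%. Vip nuclei came nearest for Kit, at 33.3% and 27.2%. Presence of Npy, Reln or Kit was thus not confined to this family. Nxph1 was no marker of this family alone: it was in 61.6% and 60.4% of the thinned Lamp5/Ndnf nuclei, in 68.7% and 70.9% of Sst and in 57.6% and 69.7% of Pvalb nuclei.

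The same limits found 65 and 45 nuclei in the libraries labelled striatum, and their profile differed. Summed over them, Npy gave 27 and 13 UMIs, Kit 27 and 7, and Reln 133 and 82, while Meis2 gave 350 and 162. In CPM, Npy was at 72.5 and 34.3, Kit at 72.5 and 18.5 and Reln at 357 and 217, all below the cortex-labelled nuclei. These nuclei are used below only as a comparison, and 1 of them shares its barcode with another library.

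Compared with Vip interneurons, the nearest family by origin, the Lamp5/Ndnf nuclei had their largest ratios in Nxph1, Reln and Sv2c. Vip nuclei were those with at least 2 Vip UMIs under otherwise similar limits, 87 and 101 in number. Among 1273 genes with at least 100 UMIs over both classes in each library, 55 were at least 2-fold higher in both libraries (4.32% of those tested) and 44 at least 2-fold lower (3.46%). In the adhesion and extracellular list 5 of 18 genes were higher and 3 lower. Nxph1 differed most, at 1397 and 1293 CPM against 24.7 and 54.4, log2 ratios of 5.82 (4.83 to 7.04) and 4.57 (3.96 to 5.25). Reln was at 43.2 and 111 CPM in Vip nuclei, with ratios of 4.99 (4.23 to 5.87) and 3.47 (3.03 to 3.94). Ptprm, a receptor phosphatase of cell contacts, was at 1548 and 1406 against 117 and 139 CPM. Unc5c, a netrin receptor, was at 1461 and 1206 against 216 and 275, and Alk, a receptor tyrosine kinase, at 842 and 687 against 194 and 96.5. All of these intervals lie above 0 in both libraries.

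Vip nuclei were in turn higher in Synpr, Sdk1, Igf1 and Cxcl14. Synpr, a synaptic vesicle protein, was at 79.3 and 135 CPM in Lamp5/Ndnf nuclei and 1482 and 1267 in Vip nuclei, log2 ratios of -4.22 (-4.80 to -3.70) and -3.23 (-3.62 to -2.87). Sdk1, a sidekick adhesion molecule, was at 92.1 and 65.4 against 898 and 690. Igf1, insulin-like growth factor 1, was at 125 and 106 against 509 and 438, and the chemokine Cxcl14 at 38.4 and 82.7 against 281 and 341. Cxcl14 had been listed as a marker of the Lamp5/Ndnf family, yet in these libraries it was higher in Vip nuclei. So was Prox1. Of the 7 family markers tested against Vip nuclei, 3 were at least 2-fold higher (Reln, Npy and Sv2c) and 2 lower (Cxcl14 and Prox1). Over all genes 4.32% were higher and 3.46% lower.

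Compared with Sst interneurons (347 and 364 nuclei), 76 of 3831 genes were at least 2-fold higher in both libraries (1.98%) and 88 lower (2.3%), or 87 and 118 without the 30 nuclei high in SPN genes. Kit was at 17.9 and 14.6 CPM in Sst nuclei, which gave ratios of 4.47 (3.88 to 5.12) and 4.73 (4.12 to 5.41). Egfr, the epidermal growth factor receptor, was at 338 and 331 CPM against 21.8 and 10.3, and Pde11a, a phosphodiesterase of both cyclic nucleotides, at 340 and 369 against 15.9 and 7.91. Erbb4, the neuregulin receptor, was at 5472 and 5247 against 1462 and 1665 CPM, though it was at 5575 and 4935 in Vip nuclei. Alk was also above the Sst nuclei, at 842 and 687 against 323 and 293 CPM. Of the 6 family markers tested, 3 were at least 2-fold higher than in Sst nuclei (Reln, Sv2c and Kit) and 1 was lower (Nos1). Over all genes 1.98% were higher and 2.3% lower.

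Genes lower than in Sst nuclei included all 5 measured genes of the Sst list, Grin3a, Elfn1, Sox6, Satb1 and Calb1, with a median log2 ratio of -2.75 and -2.59 against -0.05 and -0.03 over all genes tested. Sox6, a factor of neurons from the medial eminence, was at 76.8 and 46.2 CPM against 515 and 493. Elfn1, a synaptic adhesion protein, had 6 and 2 UMIs, with ratios of -3.84 (-5.30 to -2.71) and -5.59 (-8.64 to -3.72). Crhbp, which binds corticotropin-releasing hormone, had 3 and 5 UMIs, with ratios of -3.91 (-6.20 to -2.34) and -3.78 (-5.42 to -2.53). Ttr, a transcript of choroid plexus, was also lower, at 35.8 and 67.3 against 507 and 480 CPM, and it was at 255 and 464 CPM over all other nuclei. Npy was not 2-fold higher than in Sst nuclei in both libraries, at 505 and 637 CPM there and ratios of 0.84 (0.66 to 1.03) and 1.10 (0.96 to 1.23).

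Compared with Pvalb interneurons (69 and 126 nuclei), 69 of 1344 genes were at least 2-fold higher in both libraries (5.13%) and 37 lower (2.75%). Npy was at 70.2 and 97.1 CPM in Pvalb nuclei, Reln at 73.0 and 50.03 and Kit at 11.2 and 27.96, so each stood more than 10-fold higher in the Lamp5/Ndnf nuclei. Cacna2d1, an auxiliary calcium channel subunit, was at 982 and 996 CPM against 171 and 210, while its relative Cacna2d2 went the other way, at 56.3 and 53.9 against 323 and 324. Kcnc2, a fast potassium channel of fast-spiking cells, was at 289 and 287 against 1702 and 1416 CPM, and Syt2, a fast calcium sensor of release, at 23.0 and 40.4 against 309 and 325. All 3 measured genes of the Pvalb list (Kcnc1, Kcnc2 and Syt2) were at least 2-fold lower, with medians of -2.56 and -2.30 against 0.03 and 0.03 over all genes.

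**Figure D2:**
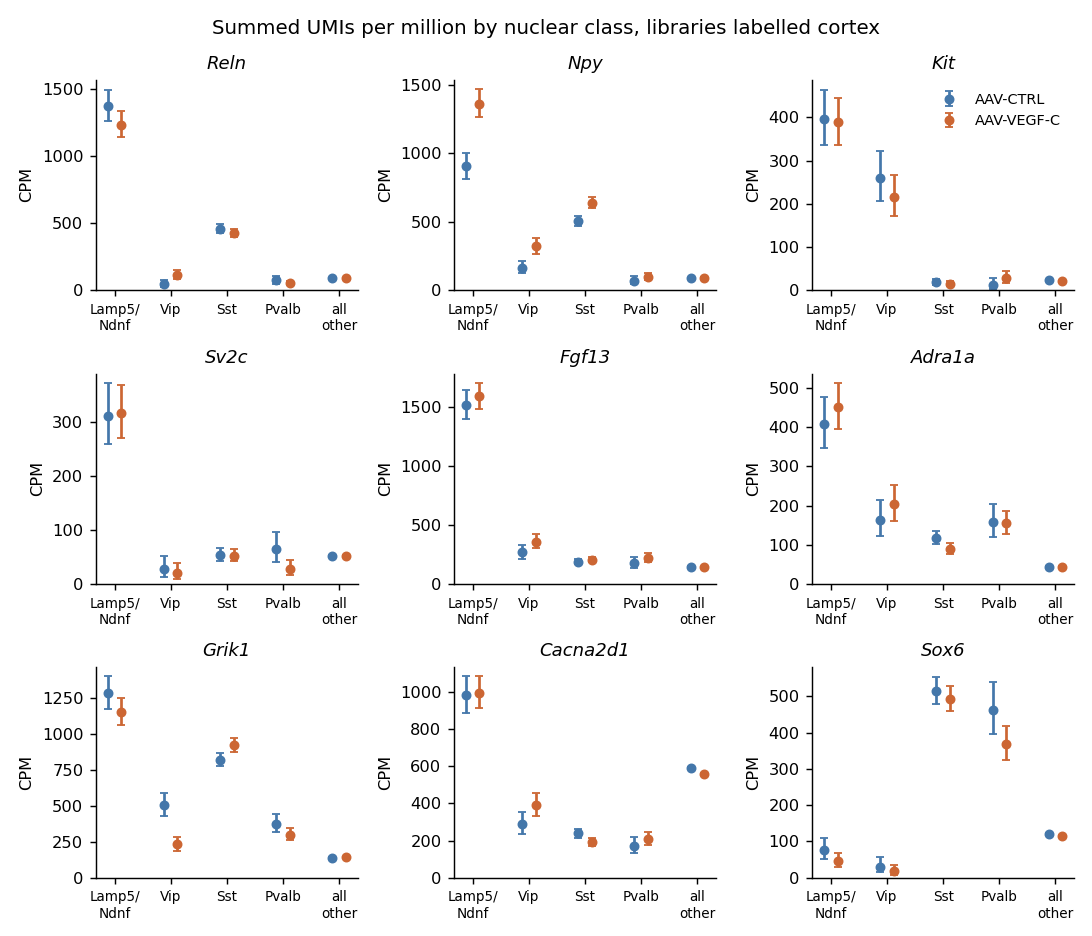
Points give the level (CPM, summed UMIs scaled to 1000000) of 9 genes in Lamp5/Ndnf, Vip, Sst, Pvalb and all other nuclei of the libraries labelled cortex, with AAV-CTRL and AAV-VEGF-C side by side and exact Poisson 95% intervals as bars. Reln, Sv2c, Fgf13, Adra1a and Cacna2d1 are highest in the Lamp5/Ndnf nuclei in both libraries, Npy is also high in Sst nuclei and Kit in Vip nuclei, and Sox6 is high in Sst and Pvalb nuclei.

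Of 1181 genes tested against all 3 families, 19 were at least 2-fold higher than in each of them in both libraries (1.61%). Among these, Fgf13, an intracellular growth factor homolog that binds sodium channels, was at 1515 and 1591 CPM against 177 to 356 in the other families. Adra1a, the alpha-1A adrenergic receptor, was at 409 and 452 CPM, with 164 and 203 in Vip, 118 and 89.4 in Sst and 157 and 155 in Pvalb nuclei. Sv2c was at 312 and 317, and at 27.8 and 19.8, 54.2 and 52.3, and 64.6 and 27.96 CPM in the same order. Nyap2, which acts in phosphoinositide kinase signalling, was at 875 and 954 CPM against at most 242, and Pde11a at 340 and 369 against at most 67.9.

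The remaining genes higher than in all 3 families were Reln, Cacna2d1, Unc5c, Alk, Igsf11, Sema5a, Pld5, Trpc5, Adamts17, Mctp1, Pip5k1b, Rtl4 and the unnamed transcripts A830018L16Rik and 5730522E02Rik. They include a calcium channel subunit, a cation channel (Trpc5), guidance and contact molecules (Unc5c, Sema5a, Igsf11) and a matrix protease (Adamts17). The 2 genes lower than in all 3 families (0.169%) were Ano4, of the anoctamin family, at 76.8 and 88.5 CPM against 200 to 583, and Oxr1, an oxidation resistance gene, at 348 and 294 against 799 to 1204. Without the 30 nuclei high in SPN genes, Fgf13 was at 1775 and 1995, Adra1a at 461 and 577 and Pde11a at 438 and 473 CPM, further from the other families.

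**Figure D3:**
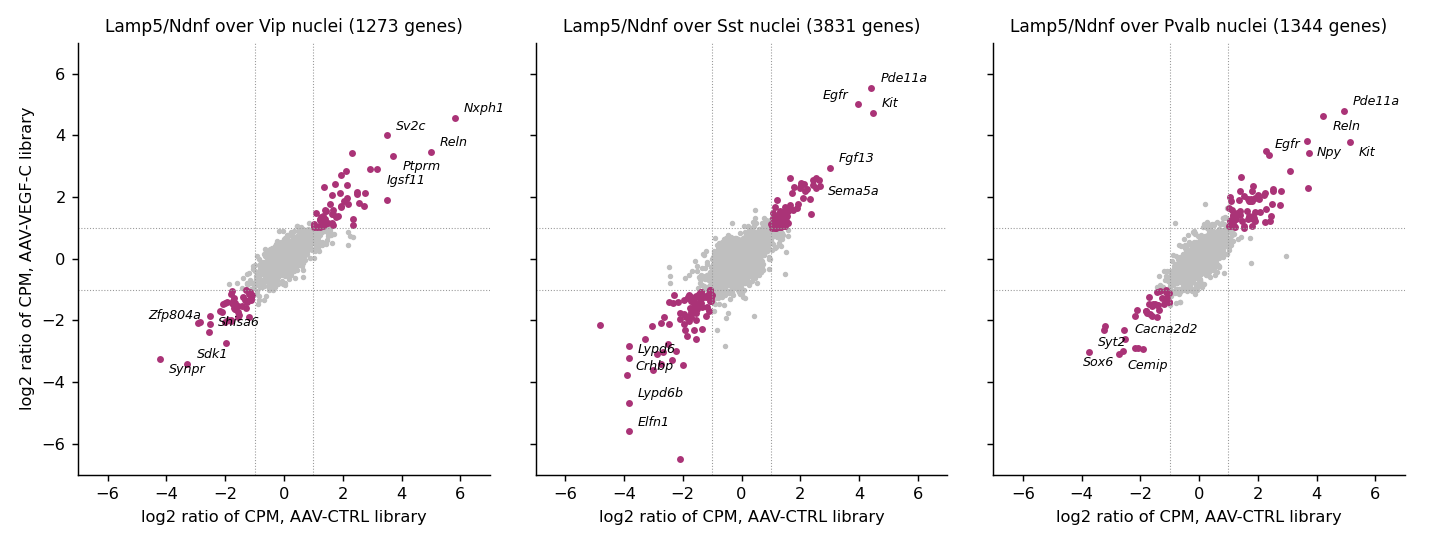
Each point is 1 gene, plotted by its log2 ratio of Lamp5/Ndnf over Vip, Sst or Pvalb nuclei in the AAV-CTRL library (horizontal) and the AAV-VEGF-C library (vertical), with values beyond 6.5 drawn at 6.5. Dotted lines mark 2-fold, and colored points (55 and 44, 76 and 88, and 69 and 37 genes higher and lower) lie beyond it in the same direction in both libraries.

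Only a few genes of GABA handling could be compared between the families. Of the GABA synthesis and transport list, with Gad1 and Gad2 left out because the rule used them, 3, 5 and 4 genes could be tested against Vip, Sst and Pvalb nuclei, and none was 2-fold different in both libraries. Over all genes 4.32% and 3.46%, 1.98% and 2.3%, and 5.13% and 2.75% were higher and lower in the same order. With so few genes tested, none past 2-fold does not set the list apart from other genes. Slc32a1, the vesicular GABA transporter, was at 159 and 212 CPM, against 198 and 195 in Vip and 181 and 212 in Sst nuclei. Of the vesicle genes, Rims1, an active zone scaffold, was at 2134 and 1895 CPM and at least 2-fold above Vip and Pvalb nuclei, with ratios over Sst nuclei of 1.11 and 0.92.

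Glutamate receptors differed by subunit. Grik1, a kainate receptor subunit, was at 1284 and 1154 CPM against 503 and 233 in Vip, 823 and 923 in Sst and 376 and 300.2 in Pvalb nuclei, so it was 2-fold higher than in Vip and Pvalb but not Sst nuclei. Grin2a, an NMDA receptor subunit, was at 2441 and 2214 CPM against 772 and 747 in Vip and 1081 and 1100.1 in Sst nuclei. Gria1, an AMPA receptor subunit, was lower than in Sst nuclei, at 1069 and 1041 against 2348 and 2352. Over the whole list, 3 of 16 genes were higher and 2 lower than in Vip nuclei, 1 of 20 higher and 4 lower than in Sst nuclei and 1 of 16 higher than in Pvalb nuclei. Over all genes the shares higher and lower were 4.32% and 3.46%, 1.98% and 2.3%, and 5.13% and 2.75% in the same order. Its median log2 ratios were -0.05 and 0.07, -0.06 and -0.08, and 0.10 and 0.17.

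Receptors for GABA and for modulators showed a similar mix. Gabrg3, a GABA-A receptor subunit, was at 2019 and 1748 CPM against 749 and 831 in Sst nuclei, and Gabrb2 at 565 and 566 against 218 and 209. None of 10 GABA receptor genes differed 2-fold from Pvalb nuclei in both libraries, where 5.13% of all genes were higher and 2.75% lower. Chrm3, a muscarinic receptor, was low at 241 and 260 CPM, against 1022 and 722 in Vip and 783 and 852 in Sst nuclei, while Chrna7, a nicotinic receptor, was at 123 and 160 against 36.4 and 53.5 in Sst nuclei. Htr2c, a serotonin receptor, was at 43.5 and 80.8 against 214 and 182 in Sst nuclei. Of the amine and acetylcholine receptor list, 2 of 7 genes were higher (Adra1a and Chrna7) and 3 lower (Htr2c, Chrm2 and Chrm3) than in Sst nuclei, where 1.98% and 2.3% of all genes were. Against Vip nuclei 1 of 3 was higher (Adra1a) and 2 were lower (Chrm3 and Adra1b), where 4.32% and 3.46% of all genes were. The adrenergic receptor Adra1b, with 42 and 37 UMIs, had ratios of -1.52 (-2.08 to -0.99) and -1.81 (-2.40 to -1.26) over Vip nuclei, opposite to Adra1a.

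Of the potassium channel list, 2 of 20 genes were at least 2-fold higher and 3 lower than in Vip nuclei, 3 of 30 higher and 1 lower than in Sst nuclei and 2 of 19 higher and 2 lower than in Pvalb nuclei. Over all genes 4.32% and 3.46%, 1.98% and 2.3%, and 5.13% and 2.75% were higher and lower in the same order. The shares of the list are above these, but each rests on 1 to 3 genes. Whether the list differs from other genes was not tested. Kcnq5, a slow M-type channel, was at 1740 and 1848 CPM against 622 and 668 in Sst nuclei, and Kcnn2, a calcium-activated channel, at 453 and 575 against 139 and 131 in Sst and 121 and 147 in Pvalb nuclei. Kcnd3, an A-type channel, was at 427 and 327 CPM against 124 and 89.8 in Pvalb nuclei. The cannabinoid receptor gene Cnr1 was at 233 and 344 CPM, above the 110 and 94.2 of Pvalb nuclei and below the 698 and 596 of Vip nuclei, and 1 nucleus of the AAV-VEGF-C library held 31 of its 179 UMIs.

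Ntrk2, the receptor for brain-derived neurotrophic factor (BDNF), was in 70 and 101 nuclei at 1103 and 1021 CPM, against 1216 and 1160 in Vip, 864 and 811 in Sst and 949 and 851 in Pvalb nuclei. Of the neurotrophin and receptor list, 2 of 5 genes were lower than in Vip nuclei (Sorcs1 and Sorcs3), and Sorcs3 was the 1 of 6 and the 1 of 5 higher than in Sst and Pvalb nuclei, where 3.46%, 1.98% and 5.13% of all genes were. Sorcs1, a sorting receptor, had ratios of -1.67 (-1.97 to -1.38) and -1.63 (-1.88 to -1.38) over Vip nuclei. Its relative Sorcs3 was at 471 and 402 CPM, below the 1395 and 1170.1 of Vip and above the 187 and 197 of Sst nuclei. Of the BDNF signalling genes, 1 of 16, none of 41 and none of 17 were 2-fold higher than in Vip, Sst and Pvalb nuclei, and none was lower. Over all genes 4.32%, 1.98% and 5.13% were higher and 3.46%, 2.3% and 2.75% lower. Itpr1, the calcium release channel that passed against Vip nuclei, was at 448 and 552 CPM against 191 and 233. Bdnf itself had 12 and 8 UMIs.

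Presence of Ndnf divided the nuclei by other genes as well. The comparison of 38 and 62 nuclei with Lamp5 alone with 8 and 8 with Ndnf alone rested on few nuclei, with 22 of 832 genes at least 2-fold higher in both libraries (2.64%) and 7 lower (0.841%). A wider split, chosen after the values were seen, set the 38 and 62 nuclei without a Ndnf UMI against the 37 and 41 with one. Of 1418 genes, 29 were higher without Ndnf (2.05%) and 12 were lower (0.846%). Reln was at 517 and 481 CPM without and at 2229 and 2481 with Ndnf, ratios of -2.11 (-2.43 to -1.79) and -2.37 (-2.64 to -2.10). Grik1 followed the same order, at 522 and 496 against 2045 and 2246 CPM, as did Npas3, a neuronal transcription factor, at 215 and 407 against 961 and 1105. Without the nuclei high in SPN genes, the Reln ratios were -2.05 and -2.15 and those of Grik1 -1.72 and -1.80.

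The nuclei without Ndnf were higher in Meis2, at 656 and 601 against 153 and 189 CPM, ratios of 2.10 (1.51 to 2.72) and 1.67 (1.15 to 2.22). Foxp2, a forkhead factor, was at 312 and 231 against 30.7 and 56.3 CPM, and Rgs9 at 251 and 327 against 97.1 and 76.7. Rgs9 belongs to the SPN list, and without the nuclei high in that list its ratios were 0.86 and 0.69, while those of Meis2 were 2.87 and 2.43. Meis2 was in 10 of the 13 and 16 of the 17 nuclei high in SPN genes, which moves with this difference, but the ratio was larger without them.

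Npy did not follow Ndnf in the way Reln did. It was at 1250 and 1535 CPM in nuclei with Lamp5 alone, at 67.0 and 1048 in those with Ndnf alone and at 780 and 1080 in those with both. The low value of 67.0 came from 4 UMIs in 8 nuclei. Of the nuclei with at least 5 UMIs of Ndnf, 4 and 6 in number, all also had at least 5 of Reln.

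**Figure D4:**
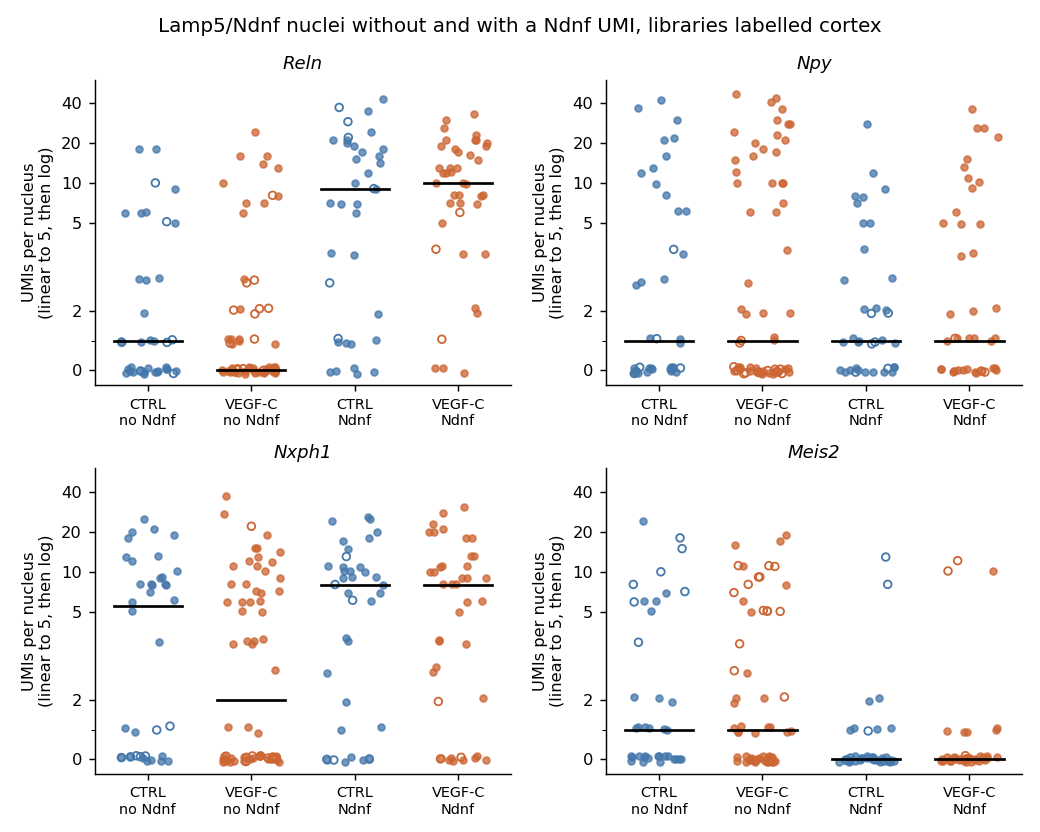
Each point is 1 Lamp5/Ndnf nucleus and gives its UMIs of Reln, Npy, Nxph1 or Meis2 on an axis linear to 5 and logarithmic above, with nuclei split by library and by presence of a Ndnf UMI (38, 62, 37 and 41 nuclei). Open circles are nuclei with more than 20 UMIs over the striatal list and bars are medians, which for Reln are higher with Ndnf and for Meis2 higher without it.

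The share of Lamp5/Ndnf nuclei did not differ between the AAV labels beyond counting error. It was 0.437% (0.344 to 0.547) of nuclei in the AAV-CTRL library labelled cortex and 0.506% (0.413 to 0.613) in the AAV-VEGF-C library, a log2 ratio of 0.21 (-0.23 to 0.66). Without the nuclei high in SPN genes the ratio was 0.23 (-0.26 to 0.72), and with the same limits in the libraries labelled striatum it was -0.09 (-0.67 to 0.48). For scale, the ratio was -0.03 (-0.46 to 0.40) for Vip, -0.18 (-0.39 to 0.04) for Sst and 0.62 (0.19 to 1.07) for Pvalb nuclei. A difference in the share of Lamp5/Ndnf nuclei was thus not detectable with this number of nuclei. The virus, the pool of mice and the library cannot be told apart.

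Between the AAV labels few genes differed in the Lamp5/Ndnf nuclei. Of 1735 genes with at least 100 UMIs over both libraries, 51 (2.94%) were higher in the AAV-VEGF-C library by a log2 ratio of 0.58 or more, the fold used in the study's methods, and 31 (1.79%) were lower, around a median of 0.01. The genes with intervals furthest above 0 were Rps29, Rpl41, Rps27a, Rpl30 and Rps27, which encode ribosomal proteins, the respiratory chain genes Cox7a2 and mt-Co3, and Npy, Palm2, Ncdn, Ahcyl2 and Thra. Those furthest below 0 were Gm28928, Col19a1, Trps1, Ppm1l, Sgcd, Epha3, Nlgn1, Prkca, Ric8b, Cpne4, Farp1 and Dpp10.

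Of the family markers with at least 100 UMIs, Npy was past the fold of 0.58. It had 354 UMIs in the AAV-CTRL and 708 in the AAV-VEGF-C library, or 906 and 1362 CPM, a log2 ratio of 0.59 (0.40 to 0.78). At least 10 UMIs of Npy were in 11 of 75 and 28 of 103 nuclei, while the share with any UMI was 60% and 56.3%, so the higher sum went with more rich nuclei and not with more positive ones. The ratio was 0.60 (0.41 to 0.79) without the nuclei high in SPN genes, 0.67 without the richest nucleus of each library, 0.50 after thinning, and 0.39 under limits of 3 UMIs for Adarb2 and for Lamp5 and Ndnf. The last 2 values are under the fold of 0.58.

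Other nuclei did not all share the Npy difference. The ratio was 0.05 over all other nuclei of the libraries, 0.96 (0.49 to 1.45) in Vip, 0.33 (0.20 to 0.47) in Sst and 0.47 (-0.22 to 1.19) in Pvalb nuclei. In the nuclei chosen by the same limits in the libraries labelled striatum it was -1.08 (-2.16 to -0.07), from 27 and 13 UMIs. The differences between these ratios were not tested.

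Of the 5 tested family markers, Npy was thus the 1 past the fold, where 2.94% of all genes were. Reln had a ratio of -0.16 (-0.32 to 0.01), Kit of -0.03 (-0.34 to 0.28) and Sv2c of 0.02 (-0.32 to 0.37), each with an interval that includes 0. Fam19a1 was lower, at 304 and 215 CPM and -0.50 (-0.88 to -0.11), but 1 nucleus of the AAV-CTRL library held 70 of its 119 UMIs. Its ratio was 0.31 (-0.22 to 0.85) without the richest nucleus of each library and 0.65 (0.13 to 1.20) without the nuclei high in SPN genes, so its direction depends on which nuclei are taken. Of the markers under 100 UMIs, Id2 had 22 and 56 UMIs and a ratio of 0.94 (0.20 to 1.72), and Cxcl14 had 15 and 43 and a ratio of 1.11 (0.23 to 2.06). Outside the list, Nxph1 was at -0.11 (-0.28 to 0.05). Of the Sncg list, Cnr1 was at 0.56 (0.19 to 0.94) and Cck, the precursor of cholecystokinin, at 0.44 (0.01 to 0.88), both under the fold. Cck was in 31.5% and 45.5% of the thinned Lamp5/Ndnf nuclei and in 43.8% and 50.7% of the oligodendrocyte nuclei, so its presence was no higher than there. The part of background RNA in it was not tested.

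Ribosomal protein genes were higher in the AAV-VEGF-C library as a family. Of 34 tested, 10 were past the fold and none lower by it, where 2.94% and 1.79% of all genes were, 31 were above 0, and their median log2 ratio was 0.43. Rps29 had 95 and 244 UMIs, a ratio of 0.95 (0.60 to 1.31). All other nuclei of the same libraries moved the same way, with a median of 0.25 over the 34 genes and 0.56 for Rps29, and the medians were 0.27 in Vip, 0.33 in Sst and 0.48 in Pvalb nuclei. Among the 9 mitochondrially encoded genes none was past the fold, with a median of 0.37 against 0.39 in all other nuclei, and mt-Co3 was at 0.54 (0.38 to 0.71) here and at 0.54 there. The share of mitochondrial UMIs in the Lamp5/Ndnf nuclei, 0.601% and 0.769%, moved with these genes, and its part in the differences was not tested.

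Some of the higher genes had smaller ratios over all other nuclei of the libraries. Palm2, a paralemmin relative, had 27 and 76 UMIs, a ratio of 1.08 (0.43 to 1.77), against -0.05 in all other nuclei. Ahcyl2, which resembles the enzyme that splits adenosylhomocysteine, had 58 and 140 UMIs and was at 0.86 (0.41 to 1.33) against -0.06. Ncdn, or neurochondrin, was at 0.88 (0.41 to 1.36) against 0.21, and Thra, a thyroid hormone receptor, at 0.86 (0.39 to 1.34) against 0.18. Of the 12 higher genes, 10 had the same sign in all other nuclei and none of them passed the fold there, where 0.383% of 17222 genes did. In Vip nuclei 4 of the 12 passed the fold (Rps29, Rpl41, Npy and mt-Co3). In Pvalb nuclei 4 did (Rps29, Rpl41, mt-Co3 and Rps27), and in Sst nuclei none did. Without the nuclei high in SPN genes 11 of the 12 were past the fold. The 12 were chosen for their ratios in a set that holds all of these nuclei, so this count is a description. Smaller ratios in other nuclei also follow in part from that choice. In all, 41 of 1256 genes were higher (3.26%) and 27 lower (2.15%) without the nuclei high in SPN genes.

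**Figure D5:**
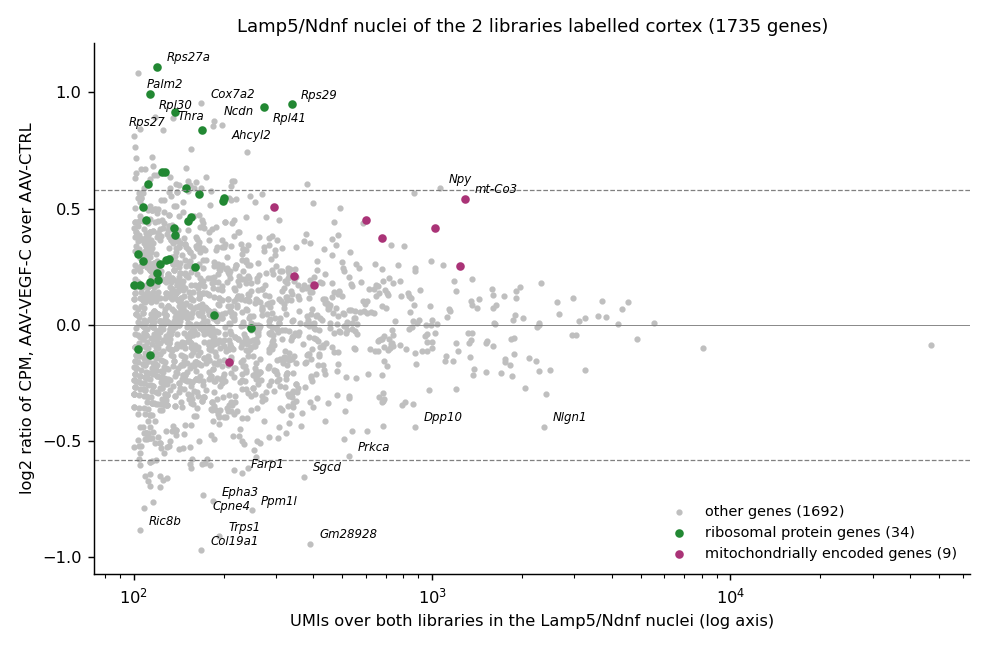
Each point is 1 of 1735 genes in the Lamp5/Ndnf nuclei of the libraries labelled cortex, plotted by its UMIs over both libraries (horizontal, log axis) and its log2 ratio of AAV-VEGF-C over AAV-CTRL (vertical). Dashed lines mark ratios of 0.58 in size. The 34 ribosomal protein genes (green) lie mostly above 0 with a median of 0.43, as do 8 of the 9 mitochondrially encoded genes (purple), and names mark the 24 genes chosen by their intervals.

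Several of the lower genes rested on few nuclei. Gm28928, a long intergenic noncoding RNA (chromosome 1, 124505757 to 124846039, minus strand), had 231 and 160 UMIs, a ratio of -0.94 (-1.24 to -0.64), but it was in only 25 and 45 nuclei, and single nuclei held 59 and 42 of its UMIs. Its ratio was 1.04 in Sst and 0.95 in Pvalb nuclei and 1.32 under the stricter limits of 3 UMIs, so its direction depends on which nuclei are taken. Without the nuclei high in SPN genes it was at -0.62. Cpne4, a copine, was at -0.73 (-1.19 to -0.28), and at -0.39 (-0.88 to 0.11) without the richest nucleus of each library and -0.33 without the nuclei high in SPN genes. Sgcd, a sarcoglycan, was at -0.65, and at -0.44 without it.

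Nlgn1, which encodes the postsynaptic adhesion protein neuroligin 1, was the most abundant of the lower genes. It had 1194 and 1172 UMIs, or 3055 and 2254 CPM, a ratio of -0.44 (-0.56 to -0.32), against -0.03 in all other nuclei, -0.16 in Sst and -0.63 (-0.77 to -0.50) in Pvalb nuclei. Col19a1, a collagen, was at -0.97 (-1.43 to -0.51), and at -0.04 after thinning. Epha3, an ephrin receptor, was at -0.76 (-1.20 to -0.32) and Trps1, a zinc finger factor, at -0.91 (-1.34 to -0.48), against -0.07 and 0.01 in all other nuclei. Epha3 was also lower in Vip nuclei, at -0.62 (-1.18 to -0.07), and was at -0.67 (-1.59 to 0.26) in Pvalb and -0.11 in Sst nuclei. Trps1 was at 0.23 in Vip, -0.33 in Sst and 0.10 in Pvalb nuclei. Under the same limits in the libraries labelled striatum the ratios were -0.71 (-1.35 to -0.09) and -0.52 (-1.08 to 0.03). Without the nuclei high in SPN genes, 6 of the 12 lower genes were past the fold and all 12 had the same sign, again as a description. The ratios of Epha3 and Farp1 were then -0.53 and -0.50, under the fold, and that of Prkca went from -0.57 to -0.28. In all other nuclei 9 had the same sign and none was past the fold, which 0.761% of genes were. In Vip nuclei 2 of the 12 lower genes were past the fold, in Pvalb nuclei 2 and in Sst nuclei none. The 12 were chosen for their ratios in the Lamp5/Ndnf nuclei, so smaller ratios in other nuclei follow in part from that choice.

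None of 18 glutamate receptor, 20 potassium channel, 10 GABA receptor, 6 neurotrophin and receptor and 9 neuregulin and insulin-like growth factor genes was past the fold, with medians of 0.03, 0.04, -0.04, 0.08 and -0.06. Over all genes 2.94% were higher and 1.79% lower by the fold, so lists this short can hold none without differing from other genes. Among the single genes past the fold in other lists were Scn2b, a sodium channel subunit, at 0.68 (0.10 to 1.29), Sema3e, a semaphorin, at 0.76 (0.26 to 1.28) and Hras, in the BDNF signalling list of 21 tested genes, at 0.63 (0.01 to 1.28). Ntrk2 was at -0.11 (-0.30 to 0.08). The oligodendrocyte list, a set of markers of another cell type, summed to 450 CPM in the AAV-CTRL and 340 CPM in the AAV-VEGF-C library, and its part in these differences was not tested.

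Genes of the VEGF system were near the limit of detection in these nuclei, so no direction can be read for them. Vegfc had 4 and 3 UMIs and Vegfa 8 and 7. Of the receptors, Flt4, which binds VEGF-C, had 0 and 1 UMI, Kdr 1 and 0 and Flt1 5 and 2, at or near the limit of 3 counts that a count of 0 allows. The coreceptors were more frequent, with Nrp2 at 34 and 35 UMIs and Nrp1 at 10 and 29, ratios of -0.37 (-1.09 to 0.36) and 1.12 (0.05 to 2.33), and neither reached the minimum of 100 UMIs.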

How the data were processed

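Cell Ranger 5.0.1 is named in the headers of the deposited matrices, and the submitters' processing notes name version 5.1.1 and the build mm10. The deposited values are UMI counts per gene and nucleus, with no normalization, in 4 libraries of 31053 genes. Doublets were called with Scrublet in scanpy 1.11.5 and kept, with calls in 4.49%, 5.95%, 7.95% and 4.31% of nuclei at an expected 8%. Counts were summed per class and library and scaled to 1000000. Comparison families needed at least 2 UMIs of Vip, Sst or Pvalb. Intervals at 95% are exact Poisson for levels, Clopper-Pearson for shares and exact conditional binomial for ratios (scipy 1.17.1). The ratio intervals were tested on simulated data with independent Poisson counts per gene. These lack the uneven spread of UMIs over nuclei, so that test cannot show how the intervals hold for unevenly spread genes. Nuclei are not replicates, and with 1 library per group no test was made.

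The nuclei, the 33 gene lists and the comparisons were chosen with earlier results of these data known. Named genes were the 12 with the highest lower bound and the 12 with the lowest upper bound between AAV labels, the 12 highest and 8 lowest against each family and the 8 highest and 8 lowest between subsets, taking the library nearer 0, with list members by role. Gene positions are those of GENCODE on GRCm38. Alternatives were other UMI limits, no minimum or at least 30 UMIs, thinning to 2000 UMIs per nucleus, equal weights per nucleus, scaling by the median ratio, and leaving out doublets, mitochondrial genes, the richest nucleus or nuclei high in SPN genes. Values of some measured genes are not reported here.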

Additional observations from a re-analysis of the deposited data

Results flagged for a closer look

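Between the AAV labels, 3 of the named genes had opposite directions in the Lamp5/Ndnf nuclei labelled cortex and in the nuclei that met the same limits in the libraries labelled striatum. The differences between the region labels were not tested, since each is between single libraries. The log2 ratio of AAV-VEGF-C over AAV-CTRL was 0.589 and -1.08 for Npy, from 354 and 708 UMIs and from 27 and 13. For the noncoding RNA Gm28928 it was -0.941 and 0.958, and for Sgcd, a sarcoglycan, -0.653 and 0.479.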

How the results depend on the processing

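No paired analysis was possible because each group is 1 library. The shares of Lamp5/Ndnf nuclei depend on the limits. They were 0.565% and 0.643% with at least 1 UMI of Adarb2, 1.27% and 1.17% with at least 1 of Lamp5 and Ndnf, 0.216% and 0.250% with at least 3, 0.295% and 0.353% after thinning, and 1.69% and 2.02% of GABAergic nuclei. Thinning also moved the ratio of shares in the libraries labelled striatum to -1.0. Genes higher and lower in the AAV-VEGF-C library numbered 523 and 387 of 5601 with at least 30 UMIs, against 51 and 31 of 1735. They numbered 2811 and 2219 of 13472 with no minimum and 13 and 8 of 520 after thinning. A lower minimum admits more genes, and thinning leaves fewer. The share past the fold also rose with a lower minimum, which admits genes with few UMIs. Under limits of 3 UMIs for Adarb2 and for Lamp5 and Ndnf, 33 of 686 genes were higher. Under those stricter limits Gm28928 reversed to 1.32. After thinning, genes higher than in Vip, Sst and Pvalb nuclei numbered 29, 47 and 27, and 11 were lower than in Pvalb nuclei. Between nuclei with Lamp5 alone and Ndnf alone, thinning left 3 higher and 4 lower genes, leaving out nuclei high in SPN genes gave 13 and 3, and the split by presence of Ndnf gave 12 lower. Of the 24 genes named between the AAV labels, 21 kept their values within counting error under the stricter limits, 22 without the nuclei high in SPN genes and 23 after thinning, and all 24 did when called doublets or the richest nucleus were left out or nuclei were weighted equally.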
